A study of Homo sapiens with 4 samples.

Results

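The genes described here are MYC and ribosome biogenesis genes known to respond to it, 40 genes chosen by name, of which 35 were among the 18417 genes named on the arrays, and each anti-ZFX hairpin was compared with the scrambled hairpin. DAOY, an established human medulloblastoma cell line, was infected for 16 to 24 hours with lentivirus carrying a short hairpin RNA. After 48 hours of recovery the cells were selected in puromycin at 2 ug/mL, and RNA was taken about 48 hours later. The knockdown groups were H2, H3 and H4, 3 different hairpins against ZFX with 1 array each, and the control was 1 array of cells with a non-targeting scrambled hairpin. All 4 groups were thus the same line, infected and puromycin-selected alike, and nothing in the labels says that any infection was repeated, so p-values measure only the spread between these arrays.

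MYC is a transcription factor that pairs with MAX on the E-box sequence and drives growth genes, among them many that build ribosomes. In the nucleolus RNA polymerase I makes the ribosomal RNA precursor, guide RNA particles methylate it or turn its uridines into pseudouridines, and large assemblies fold and cut it into the RNAs of the small and large subunits. MYC is known in medulloblastoma as a gene that is amplified or highly expressed in some tumours.

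These 35 had a probe set assigned to that symbol alone, and all of them were above the intensity filter used for the tests, the 25th percentile of mean log2 intensity (6.78). The probe sets of NOP56 and PPAN carry other symbols too and were not used, and GNL3, EBNA1BP2 and DDX18 are unnamed in the annotation used here. A probe set's intensity depends on its own probes, so levels were compared between arrays and never between genes. With whole cultures as samples, a change per cell and a change in the share of cells cannot be told apart.

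Promoters are shown for the genes with the largest mean difference in each direction, LYAR and NIP7, and for the 2 genes with the most E-boxes, IMP4 and BYSL, the second being the alphabetically first of several with 1 match. Each runs 250 bases before to 50 bases after the gene's start, in the direction of transcription, from RefSeq on GRCh38.p14. Capitals mark the E-box, CACGTG, which reads the same on both strands. LYAR lies at chr4:4290105-4290404 on the minus strand, NIP7 at chr16:69339522-69339821 on the plus strand, IMP4 at chr2:130342647-130342946 on the plus strand and BYSL at chr6:41921249-41921548 on the plus strand.
LYAR: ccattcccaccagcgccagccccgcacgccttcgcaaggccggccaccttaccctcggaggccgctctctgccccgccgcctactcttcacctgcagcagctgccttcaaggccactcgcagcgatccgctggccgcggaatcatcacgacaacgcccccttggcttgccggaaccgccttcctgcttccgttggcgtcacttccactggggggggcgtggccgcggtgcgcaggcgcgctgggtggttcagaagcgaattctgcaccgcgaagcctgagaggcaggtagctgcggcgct
NIP7: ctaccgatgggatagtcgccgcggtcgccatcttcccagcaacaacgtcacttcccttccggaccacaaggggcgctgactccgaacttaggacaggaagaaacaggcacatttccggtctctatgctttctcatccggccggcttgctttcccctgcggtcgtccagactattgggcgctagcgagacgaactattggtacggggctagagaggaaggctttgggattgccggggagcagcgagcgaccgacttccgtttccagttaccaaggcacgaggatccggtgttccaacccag
IMP4: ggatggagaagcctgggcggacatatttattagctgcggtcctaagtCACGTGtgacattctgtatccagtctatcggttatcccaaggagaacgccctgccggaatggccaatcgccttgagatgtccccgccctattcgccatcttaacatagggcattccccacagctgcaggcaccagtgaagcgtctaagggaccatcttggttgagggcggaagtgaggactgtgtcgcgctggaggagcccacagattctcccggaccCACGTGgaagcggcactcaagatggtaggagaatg
BYSL: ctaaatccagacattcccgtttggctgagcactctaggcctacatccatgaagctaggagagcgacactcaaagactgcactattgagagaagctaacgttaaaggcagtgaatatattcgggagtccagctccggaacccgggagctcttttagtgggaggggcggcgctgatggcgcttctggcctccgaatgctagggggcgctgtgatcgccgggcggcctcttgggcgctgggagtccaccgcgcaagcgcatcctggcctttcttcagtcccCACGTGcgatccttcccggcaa

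The E-box stood at positions -203 and 16 of IMP4 and at position 29 of BYSL, counted from the gene's start, and neither LYAR nor NIP7 held it in this window. A promoter was listed for 33 of the 40 genes; MYC, NOLC1, NOP58, RRP12, BOP1, RRS1 and DDX18 had none listed. Of these 33 promoters 13 held an E-box, or 39.4%, against 9.98% of 10919 promoters of genes kept on the arrays and 7.43% of all 27305 promoters. The 13 were those of FBL, PUS7, UTP20, UTP4, WDR43, RRP9, NOP14, IMP4, BYSL, PES1, NOP2, MRTO4 and EBNA1BP2. Among 87 further ribosome biogenesis factors the share was 26 of 76 listed promoters (34.2%). The letters AGGCCT, known as the core of the sequence bound by ZFX and also the same on both strands, were found in 2 of the 33 promoters (6.06%), those of POLR1B and BYSL, against 13 of 76 (17.1%) among the further factors and 11.0% of all promoters. A match is a description of these letters, not evidence of binding. The 40 genes were chosen as MYC and genes known to respond to it, so their E-box share is not independent of that choice.

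ZFX, the zinc finger transcription factor targeted by the hairpins, read 744.9 with H2, 749.6 with H3 and 995.6 with H4, against 1429.6 on the scrambled array, so it was lower with every hairpin and about equally so with H2 and H3. Log2 intensities of any pair of arrays correlated at 0.992 to 0.996 across probe sets, and the lowest value was that of H2 and scrambled. In limma, with p-values adjusted over all 13813 genes kept, 0 genes passed 0.05 (smallest adjusted p = 0.9998), and 446 had an unadjusted p under 0.05. Of 14 neural progenitor and medulloblastoma markers 12 were above the filter, among them OTX2, ZIC1, ZIC2 and GLI3, and NES and GLI1 were under it. Of 9 measured markers of leukocytes, endothelium, liver and muscle, 6 were under the filter, among them PTPRC, PECAM1 and ALB, and MYH7, APOA1 and DES were above it.

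With H2 almost the whole set stood above the scrambled array, while with H3 and H4 it lay near it. With H2, 34 of the 35 genes were above the scrambled array, against 44.0% of all genes, and MYC was the exception. With H3, 24 of 35 were above (44.5% of all genes), and with H4, 18 of 35 (38.9% of all genes), counts that were larger under the other scalings of the arrays described at the end of these results. The set's median log2 difference was 0.23 for H2, 0.04 for H3 and 0.02 for H4, beside medians over all genes of -0.03, -0.02 and -0.05. The 3 comparisons share the scrambled array, so they are not independent of one another.

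H2 also read highest of all 4 arrays for 32 of the 35 genes, against 28.9% of all genes, a count in which the scrambled array has no special place. The exceptions were MYC, highest on the scrambled array, NOC4L, highest with H3, and BOP1, with nearly equal values on all 3 knockdown arrays. Set against the mean of H3 and H4, H2 was higher by a median of 0.24 over the set and by 0.005 over all genes (log2). ZFX was at 52.1% of the scrambled value with H2, at 52.4% with H3 and at 69.6% with H4, and its part in the shift was not tested. With 1 array per hairpin none of these differences has a replicate, and whether H2 differs from the other hairpins could not be tested.

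By size the differences were modest. With H2, 16 of 35 genes were at least 1.2-fold higher than on the scrambled array, against 8.54% of all genes, and 0 were 1.2-fold lower, against 19.8%. With H3, 0 were at least 1.2-fold higher (5.89% of all genes) and 2, DKC1 and NIP7, were 1.2-fold lower (9.14%). With H4, LYAR alone was 1.2-fold higher (4.63%) and RRS1 alone was 1.2-fold lower (13.3%). At 1.5-fold, 0 of 35 were higher with H2, H3 or H4 (0.992%, 0.528% and 0.608% of all genes), the largest being WDR74 at 1.49-fold with H2. DKC1 alone was 1.5-fold lower, with H3 (1.14% of all genes), where H2 and H4 had 0 of 35 (5.61% and 2.17% of all genes).

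**Figure D1:**
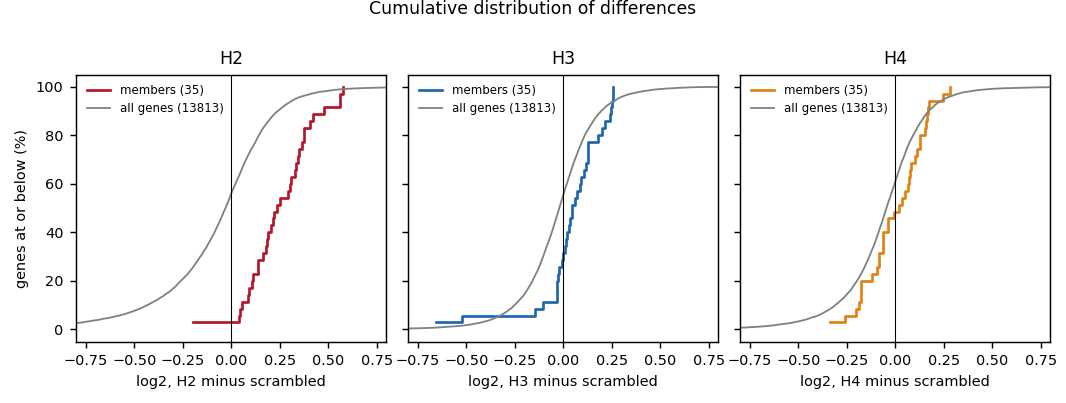
Share of genes (vertical axis, percent) at or below each log2 difference from the scrambled array (horizontal axis), for the 35 members in colour and all 13813 genes kept in grey, with 1 panel per hairpin and 1 array per hairpin. The H2 curve of the members lies right of zero but for MYC, with a median of 0.23, while the H3 and H4 curves have medians of 0.04 and 0.02.

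All 3 hairpins stood above the scrambled array for 15 of the 35 genes, against 16.9% of all genes, and all 3 stood below it for 1, MYC, against 30.6% of all genes. The 15 were NCL, NPM1, NOLC1, LYAR, GAR1, NHP2, PUS7, UTP20, UTP4, HEATR1, DDX10, NOB1, BOP1, NOP16 and WDR74. The other 19 had hairpins on both sides. Without H2, 15 genes were above the scrambled array with both other hairpins (23.5% of all genes) and 8 were below it (40.1% of all genes), and without H4 the count above was 24 (27.9% of all genes). The median of the mean differences was 0.09 over the set and -0.03 over all genes, with hairpin medians spreading by an SD of 0.12 (n = 3), and without H2 it was 0.04. In limma 0 of the 35 genes passed an adjusted p of 0.05, against 0.0% of all genes (smallest adjusted p = 0.9998), and 0 had an unadjusted p under 0.05, against 0.746% of all genes on the higher and 2.48% on the lower side. The scrambled array stands alone, and an exact permutation test of it against 3 arrays cannot go below p = 0.25 (two-sided).

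**Figure D2:**
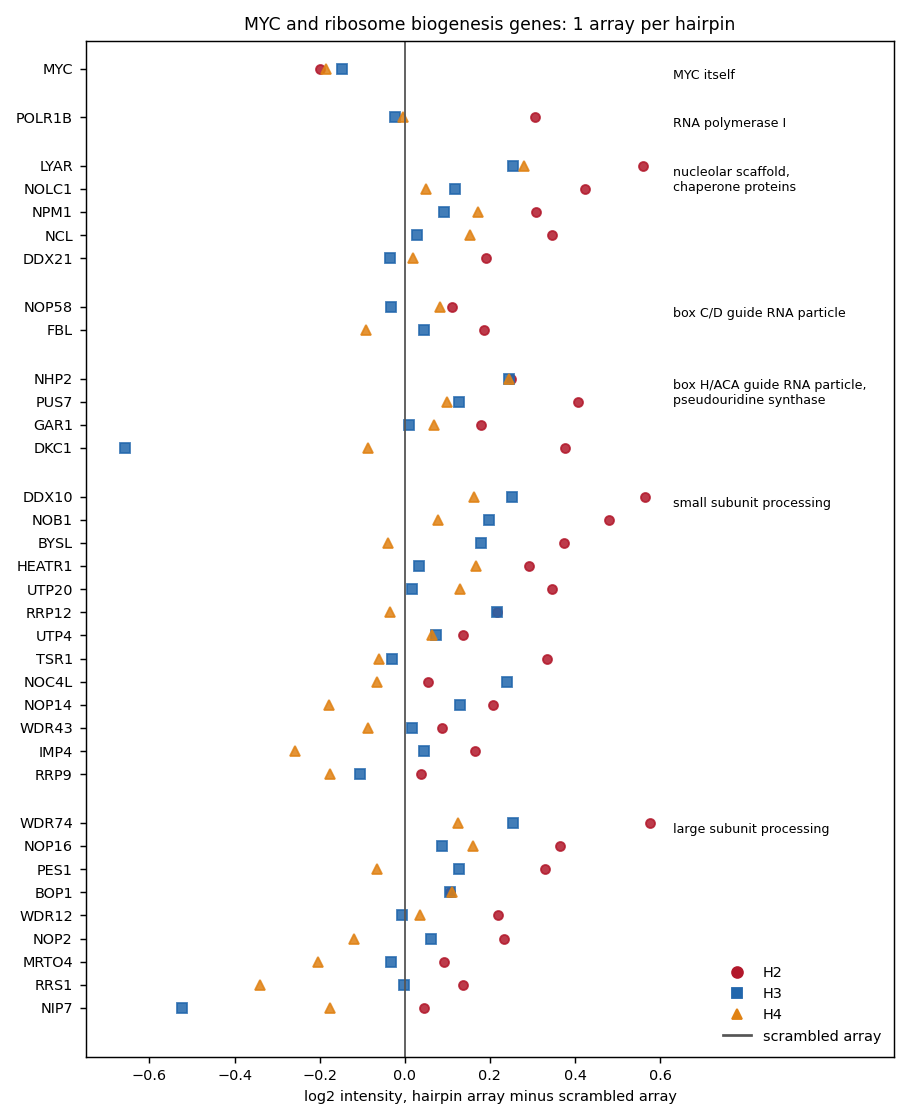
Log2 intensity of each hairpin array minus the scrambled array (horizontal axis) for 35 genes grouped by role, with H2 as circles, H3 as squares, H4 as triangles and the scrambled array as the vertical line. H2 lies right of the line for 34 of the 35 genes, MYC has all 3 hairpins left of it, and DKC1 and NIP7 have H3 far to the left at -0.66 and -0.52.

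MYC itself went the other way from most of the set. It read 1082 with H2, 1122 with H3 and 1092 with H4, against 1243 on the scrambled array. All 3 knockdown arrays were lower and close together, at 87.1%, 90.2% and 87.9% of it. On the log2 scale the mean was -0.18 ± 0.03 (SD, n = 3 hairpins; limma SE 0.13, adjusted p = 0.9998), and 80.3% of all genes had a mean at or above it. MYC was also below the scrambled array with each hairpin when arrays were centred on their medians (mean -0.09) and after quantile normalization (mean -0.12).

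RNA polymerase I was represented by POLR1B, its second largest subunit. It read 2408 with H2, 1920 with H3 and 1943 with H4, against 1950 on the scrambled array. Only H2 was high, at 1.24-fold. H3 and H4 were marginally below the scrambled array, at 98.5% and 99.7%, so the groups overlapped. Both turned marginally positive under the other scalings tried, centring (0.01 and 0.10) and quantile normalization (0.002 and 0.05).

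Nucleolar scaffold and chaperone proteins lay mostly above the scrambled array. All 5 measured members were above the scrambled array with H2 and with H4 (44.0% and 38.9% of all genes), and 4 of 5 with H3 (44.5%). LYAR, a nucleolar zinc finger protein that promotes ribosomal RNA processing, read 1361 with H2, 1101 with H3 and 1121 with H4, against 923.0 on the scrambled array. Every knockdown array was higher and H2 was the highest. The mean log2 difference of 0.37 ± 0.17 (SD, n = 3; limma SE 0.18, adjusted p = 0.9998) was the largest of the set, and 1.19% of all genes had a mean at least as high.

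NPM1 (nucleophosmin) and NCL (nucleolin), abundant nucleolar proteins that bind ribosomal RNA and its partners, were also higher with each hairpin. NPM1 had 12727 with H2, 10944 with H3 and 11569 with H4, against 10273 on the scrambled array (mean log2 difference 0.19 ± 0.11). NPM1 has processed pseudogenes, so its probes may read related transcripts. Of its other 3 probe sets 2 had mean differences of 0.22. The dimmest had 0.003, but it read only 75.9 to 80.3 across the arrays. That is under the level of the intensity filter (6.78 in log2), so it says little about NPM1. NCL had 6096, 4897 and 5336 with H2, H3 and H4, against 4800 on the scrambled array, where H3 was only 1.02-fold higher. NOLC1, a chaperone of the guide RNA particles, was at 1.34-, 1.09- and 1.03-fold with H2, H3 and H4. DDX21, an RNA helicase of the nucleolus, overlapped, with 114.2%, 97.7% and 101.3% of the scrambled value.

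In the box C/D particle, which methylates ribosomal RNA, both measured proteins were close to the scrambled array. NOP58, a core scaffold protein, read 5478 with H2, 4966 with H3 and 5375 with H4, against 5076 on the scrambled array. H3 was below the scrambled array and the others above it. FBL (fibrillarin), the methyltransferase, was at 113.8%, 103.1% and 93.8% of the scrambled value. Their mean log2 differences were 0.05 ± 0.08 and 0.05 ± 0.14 (SD, n = 3).

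The box H/ACA particle, which makes pseudouridine, held closely grouped and widely spread values. NHP2, a core protein, read 2171 with H2, 2164 with H3 and 2163 with H4, against 1826 on the scrambled array. The 3 knockdown arrays were nearly identical and all higher, a mean log2 difference of 0.25 ± 0.003 (SD, n = 3; limma SE 0.12, adjusted p = 0.9998). Its unadjusted p of 0.0895 in limma was the smallest of the set. The other NHP2 probe set was lower in level and read 1507, 1420.0 and 1459, against 1315, with a mean difference of 0.15. The 2 probe sets thus shared the direction but not the closeness of the hairpins. Which transcripts each of them reads could not be checked, so the closeness may not be a trait of NHP2.

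DKC1 (dyskerin), the particle's pseudouridine synthase, was spread more widely than any other member. It read 3556 with H2, 1738 with H3 and 2581 with H4, against 2739 on the scrambled array. H2 was the highest array and H3 the lowest by far, at 63.4% of the scrambled value. The log2 differences of 0.38, -0.66 and -0.09 gave a mean of -0.12 ± 0.52 (SD, n = 3), and 0.746% of all genes were at least as low with H3. DKC1 was singled out after its values were seen. GAR1, another core protein, was at 113.1%, 100.6% and 104.9% of the scrambled value.

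PUS7, a pseudouridine synthase that works without a guide RNA, read 1838 with H2, 1512 with H3 and 1484 with H4, against 1385 on the scrambled array. All 3 hairpins were higher, and H2 stood well above the other 2. On average it differed on the log2 scale by 0.21 ± 0.17 (SD, n = 3; limma SE 0.18, adjusted p = 0.9998).

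**Figure D3:**
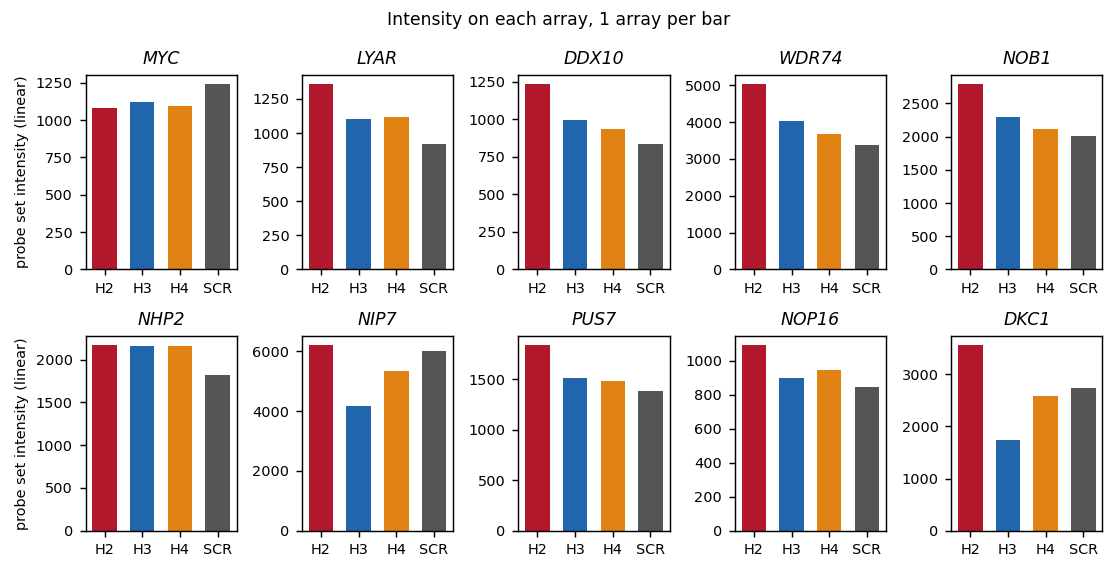
Linear probe set intensity (vertical axis, from 0, with its own scale in each panel) on the H2, H3, H4 and scrambled (SCR) arrays for MYC, the 8 genes with the largest mean difference and DKC1, with 1 array per bar. H2 is the tallest bar in every panel but that of MYC, where the scrambled array is tallest at 1243, and the scrambled array is the lowest bar for LYAR, DDX10, WDR74, NOB1, NHP2, PUS7 and NOP16.

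Genes of small subunit processing stood further from the share of all genes with H2 than with H3 or H4. This was not particular to them, since with H2 every measured gene of the set but MYC was above the scrambled array. With H2 all 13 were above the scrambled array (44.0% of all genes), with H3 11 were (44.5%), and with H4 5 were (38.9%). The H4 count was thus near the share of all genes as deposited. It was 10 after centring (64.3% of all genes) and 8 after quantile normalization (52.2%). DDX10, an RNA helicase of early processing, read 1237 with H2, 996.9 with H3 and 937.1 with H4, against 837.1 on the scrambled array. The knockdown arrays did not overlap the scrambled one, and H2 was highest, for a mean log2 difference of 0.33 ± 0.21 (SD, n = 3; limma SE 0.20, adjusted p = 0.9998). NOB1, the nuclease that makes the final cut in small subunit RNA, read 2796, 2302 and 2118 with H2, H3 and H4, against 2006 on the scrambled array. It too was higher with each hairpin, with a mean of 0.25 ± 0.21 (limma SE 0.19).

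HEATR1, UTP20 and UTP4, components of the small subunit processome, were higher with every hairpin. On the H2, H3 and H4 arrays HEATR1 was at 122.5%, 102.4% and 112.2% of scrambled, and UTP20 at 127.2%, 101.1% and 109.4%. UTP4 varied least of the 3, at 109.9%, 105.2% and 104.6%. In each of them H2 was highest.

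The remaining 8 genes of this stage had H4 below the scrambled array in the values as deposited, and NOP14, IMP4 and RRP9 did so after centring too. As deposited, 8431 of all 13813 genes were below it with H4, so this count was near the share of all genes. TSR1 and BYSL, both late small subunit assembly factors, were at 126.1% and 129.6% with H2 and at 95.8% and 97.2% with H4. RRP12, an export and processing factor, was at 116.2% with both H2 and H3 and at 97.6% with H4. NOC4L was highest with H3, at 118.1%, and WDR43 stayed within 106.2% and 94.2%. NOP14, IMP4 and RRP9, which act with the U3 guide RNA, were at 88.4%, 83.6% and 88.5% with H4 and at 115.3%, 112.0% and 102.7% with H2. For these 8 genes the knockdown arrays fell on either side of the scrambled one.

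Large subunit processing showed the same order with a wider range. Of 9 measured genes, all 9 were above the scrambled array for H2, 5 for H3 and 4 for H4 (44.0%, 44.5% and 38.9% of all genes). After centring 9, 8 and 5 were above (65.9%, 53.6% and 64.3%), and after quantile normalization 9, 7 and 5 (55.9%, 51.2% and 52.2%). The H4 count was thus near the share of all genes as deposited and after quantile normalization, and below it after centring. WDR74, a factor of early large subunit assembly, read 5039 with H2, 4028 with H3 and 3685 with H4, against 3378 on the scrambled array. All 3 hairpins were higher, and H2 by 0.58 on the log2 scale, the largest single difference above the scrambled array in the set (mean 0.32 ± 0.23, SD, n = 3; limma SE 0.19, adjusted p = 0.9998). NOP16 read 1093, 901.5 and 947.5 with H2, H3 and H4, against 848.4 on the scrambled array, higher with each hairpin (mean 0.20 ± 0.14).

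PES1, BOP1 and WDR12 form a complex needed to mature large subunit RNA. They were not shifted alike. In the order H2, H3 and H4, BOP1 was at 107.7%, 107.7% and 108.0% of scrambled, PES1 at 125.7%, 109.1% and 95.6%, and WDR12 at 116.4%, 99.5% and 102.5%. A second BOP1 probe set had a mean log2 difference of -0.006, so its shift of 0.11 was not seen by both. NOP2, a methyltransferase of large subunit RNA, was at 117.6%, 104.4% and 92.0%.

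NIP7, a processing factor that binds pre-ribosomal RNA, had the lowest mean of the set. It read 6205 with H2, 4182 with H3 and 5327 with H4, against 6014 on the scrambled array. H2 was slightly above the scrambled array and H3 far below it, at 69.5%. On average it differed by -0.22 ± 0.29 (log2; SD, n = 3; limma SE 0.22, adjusted p = 0.9998), and 1.53% of all genes were at least as low with H3. RRS1 and MRTO4, large subunit assembly factors, were lowest with H4, at 79.1% and 86.8% of the scrambled value, and above it with H2, at 110.0% and 106.5%.

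Genes with an E-box had the smaller median shift with H2. The 12 measured genes with an E-box in the promoter window had a median log2 difference of 0.20 with H2, and the 17 without it had 0.31. This difference was not tested, and the groups overlapped. Without an E-box, WDR74 was at 0.58 and NIP7 and NOC4L at 0.05, and with one, PUS7 was at 0.41, BYSL at 0.37, UTP20 at 0.35 and RRP9 at 0.04.

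Other genes of the pathway were examined from a list of 87 further ribosome biogenesis factors, 85 of them measured. With H2, 69 of 85 were above the scrambled array, with H3 56 and with H4 43, and their medians were 0.17, 0.04 and 0.005. With H4 the count was 69 after centring and 55 after quantile normalization. For this and the lists below, the shares of all genes above it with H2, H3 and H4 were 44.0%, 44.5% and 38.9%. They were 65.9%, 53.6% and 64.3% after centring and 55.9%, 51.2% and 52.2% after quantile normalization. H2 was the highest array for 59 of the 85. All 3 hairpins were above the scrambled array for 31 and below it for 7, against 16.9% and 30.6% of all genes. The count above was 52 after centring (34.3% of all genes) and 42 after quantile normalization (26.4%). Of the 85 genes 0 passed limma's adjusted p of 0.05, with 1, UTP11, at an unadjusted p under 0.05. UTP11, of the small subunit processome, was 1.25-fold higher (mean log2 difference 0.33 ± 0.05, SD, n = 3), RPF2, of large subunit assembly, 1.26-fold and KRR1, of small subunit assembly, 1.23-fold. RRP1B, a nucleolar protein, stood apart at 890.7 with H2, 2164 with H3 and 1970.2 with H4, against 2234 on the scrambled array, low on H2 alone.

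Of 14 further genes of RNA polymerase I and its factors, 10 were above the scrambled array for H2, 7 for H3 and 7 for H4, and the medians were 0.04, -0.003 and -0.001; the H3 and H4 medians turned positive on centring (0.03 and 0.10) and on quantile normalization (0.01 and 0.09). POLR1D and POLR1A, 2 subunits, were at 89.1% and 91.9% of the scrambled value on average. TTF1, the termination factor, was at 111.5% and TAF1A, of the initiation factor, at 108.3%. Cytosolic ribosomal proteins, the load that these factors assemble, had medians of 0.10, 0.02 and 0.04 over 58 measured genes, with 47, 34 and 39 above the scrambled array. After centring the medians were 0.22, 0.06 and 0.14, with 57, 47 and 55 above. RPL41 was at 122.6% of the scrambled value on average. Ribosomal protein genes have many pseudogenes, so their values are uncertain.

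Genes around MYC outside ribosome building had smaller medians with H2, a difference that was not tested. Of 27 measured genes known to be induced by MYC in other pathways, 18 exceeded the scrambled array for H2, 13 for H3 and 7 for H4, and their medians were 0.07, -0.006 and -0.03. On centring 24, 15 and 18 were above, and the H3 and H4 medians were positive (0.03 and 0.08), and on quantile normalization the H3 median was (0.02). CDC25A, a cell cycle phosphatase, read 724.3 with H2, 800.9 with H3 and 733.7 with H4, against 1046 on the scrambled array, lower with every hairpin (mean log2 difference -0.47 ± 0.08, SD, n = 3). SLC7A5, an amino acid transporter, averaged 74.4% and PPAT, of purine synthesis, 85.9% of the scrambled value, while the chaperone HSPE1 averaged 114.3%. Of these 27 genes 0 passed limma's adjusted p, and 1, CDC25A, had an unadjusted p under 0.05.

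Partners and rivals of MYC lay on both sides. Of 12 measured network genes 3 were above the scrambled array for H2, 7 for H3 and 5 for H4, and the median of their means was -0.05. The counts were 10, 8 and 8 after centring and 8, 8 and 7 after quantile normalization, and the median turned positive (0.04 and 0.02). MXD1, which competes with MYC for MAX, read 592.6 with H2, 1122 with H3 and 723.2 with H4, against 1072 on the scrambled array. MLX was 1.22-fold higher on average and MXI1, a MAX partner, 1.14-fold, both with every hairpin, and MLXIP averaged 81.4%. MAX itself, added after its values were seen, was at 96.6%.

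Genes known to be repressed by MYC had their lowest median with H2, where the ribosome biogenesis genes had their highest. A link between these lists was not tested. Their medians were -0.41 for H2, -0.12 for H3 and -0.07 for H4 over 12 measured genes. Of these, 9, 8 and 10 were below the scrambled array, against 7738, 7664 and 8431 of all 13813 genes. By count the most were thus below with H4. On centring and on quantile normalization the H4 median was positive (0.03 and 0.003), with 7 and 6 genes above the scrambled array, against 2 as deposited. GADD45B, a stress-induced gene, read 425.7 with H2, 497.9 with H3 and 498.2 with H4, against 713.0 on the scrambled array, lower with every hairpin. GADD45G, of the same family, read 195.9, 305.1 and 439.4 with H2, H3 and H4, against 450.3. NDRG1 and NDRG2, differentiation-associated genes, were at -0.74, -0.48 and 0.02 and at -0.84, -0.57 and -0.06. The list was not uniform: all 3 hairpins were below the scrambled array for 6 of the 12 genes (30.6% of all genes). They were above it for 1 (16.9%), and 5 had hairpins on both sides. In limma 0 of the 12 passed the adjusted p, and 2 had an unadjusted p under 0.05.

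**Figure D4:**
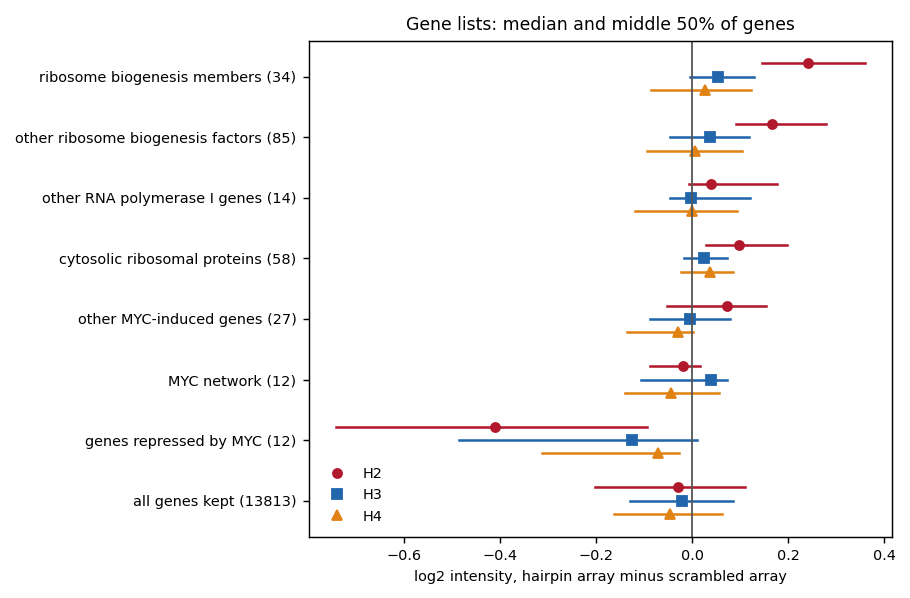
Median (symbol) and middle 50% of genes (line) of the log2 difference between each hairpin array and the scrambled array for the ribosome biogenesis genes without MYC, 6 related lists and all genes kept, with the number of measured genes in brackets. The ribosome biogenesis lists lie furthest right with H2, and the list of genes repressed by MYC lies furthest left with H2, at -0.41.

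How many of the genes lay above the scrambled array with H3 and H4 depended on how the arrays were scaled, and the count with H2 was the same under the 3 scalings tried. With each array centred on its median, 34, 31 and 27 of the 35 genes were above the scrambled array with H2, H3 and H4, against 65.9%, 53.6% and 64.3% of all genes. With quantile normalization the counts were 34, 28 and 23, against 55.9%, 51.2% and 52.2%. Centring moved the H2 median of all genes to 0.10, against -0.03 as deposited. Relative to the median of all genes the set stood 0.26, 0.07 and 0.06 higher with H2, H3 and H4 both as deposited and centred, and 0.27, 0.07 and 0.04 higher after quantile normalization. The means of RRP9, IMP4, RRS1 and MRTO4, negative as deposited, were positive after centring, and those of IMP4 and MRTO4 after quantile normalization as well. H2 was the highest array for 33 of 35 genes under both scalings, against 44.2% of all genes when centred and 36.8% after quantile normalization.

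**Figure D5:**
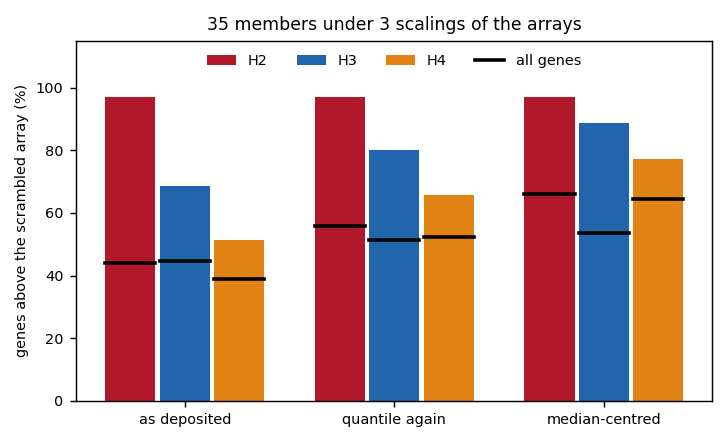
Percent of the 35 genes above the scrambled array (bars, from 0) with H2, H3 and H4 under 3 scalings of the arrays, beside the percent of all genes (black lines). The H2 bar stands for 34 of 35 genes under each scaling, while the H4 bar stands for 18, 23 and 27 genes as deposited, after quantile normalization and after centring.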

How the data were processed

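Per the submitters' processing notes, the authors processed the arrays with RMA, and the deposited table holds 1 linear intensity per probe set and array; its version, settings and the genome build were not given in the sources used here. RMA gives every array the same distribution of probe values, so a change in total RNA per cell could not be seen. Log2 of each deposited intensity was taken. The test had been planned for values already in log2. Of 33297 probe sets, 19460 carry 1 symbol, 1754 several, and the rest none in the annotation; 19429 matched RefSeq by gene number. For a gene with several probe sets, the one with the highest mean was kept, giving 18417 genes, and those at or above the 25th percentile of mean log2 intensity (6.78) were tested, 13813 in all. The fit was limma (version 3.58.1, R 4.3.3), by lmFit and eBayes with intensity trend, with 2 residual degrees of freedom. It set 3 hairpin arrays, taken as replicates because their labels give 1 genotype, against 1 scrambled array. Benjamini-Hochberg adjustment was over all genes kept. The spread of the scrambled condition was taken to equal that of the hairpin arrays. The fit was also run on simulated data that gave the scrambled array this same spread, so that run could not check the assumption. Single hairpins, with 1 array a side, were given folds and no p-value. Errors are SDs over the 3 hairpins. The genes and lists were chosen with earlier results of these data known. Named genes were MYC, ZFX, all measured members, and up to 4 genes per further list with the largest mean difference. No batch, scan date or detection call was used here. Tables were joined with pandas 2.3.3 and figures drawn with matplotlib 3.10.9. The alternatives tried were array scaling, the intensity filter, the choice of probe set, the variance model, the fold and leaving out each hairpin.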

Additional observations from a re-analysis of the deposited data

How the results depend on the processing

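The number of arrays limits precision, and signal over background was not used here. In limma 0 of all genes and 0 of the 35 passed an adjusted p of 0.05 under the alternatives tried, with 0 of the 35 at an unadjusted p under 0.05. With arrays centred on their medians, the set's H2 median was 0.36, against 0.23, and 26 genes were above the scrambled array with all 3 hairpins (34.3% of all genes), against 15 (16.9%) as deposited. The counts at least 1.2-fold higher were then 26 for H2, 5 for H3 and 6 for H4, and the count 1.2-fold lower with H4 was 0. After quantile normalization those higher with H3 were 4 and with H4 were 2. The shares of all genes past 1.2-fold under these scalings are not given here. Centring moved the medians of all genes with H2, H3 and H4 from -0.03, -0.02 and -0.05 to 0.10, 0.01 and 0.06. These counts therefore cannot be set against the shares of all genes as deposited, and they show no gain of the set over all genes. At 1.5-fold the counts were 0 higher with H2, 1 lower with H3 (DKC1), and 0 higher and 0 lower with H4. Leaving out 1 hairpin in turn, the count above with all remaining hairpins ranged from 15 to 24, the count below from 1 to 8 and the median of the set from 0.04 to 0.15. The cause was not tested, except that fewer arrays have to lie on 1 side when 1 is left out. The intensity filter, the choice of probe set and the variance model changed none of these counts of the 35 genes by over 1.5 times. Of all genes, 446 had an unadjusted p under 0.05 with the filter as used, 691 without a filter and 248 at the 50th percentile. The sign of the mean turned for RRP9, IMP4, RRS1 and MRTO4 on centring, and for POLR1B, DDX21, FBL, WDR43, NOP14, TSR1 and NOP2 without H2; it also turned for IMP4 and MRTO4 after quantile normalization, for DKC1, WDR43 and NOC4L without H3, and for IMP4, RRS1 and MRTO4 without H4. The counts of genes above the scrambled array and of genes with H2 highest were added after seeing the data, with their scalings. No paired analysis was possible because the scrambled group has 1 array and the labels pair none.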
